A study of Mus musculus with 36 samples.

Results

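Macrophages grown from mouse bone marrow monocytes in M-CSF were compared after 1 day with interleukin-4 (IL-4) and without it, using 6 of the 36 arrays of the series, which were chosen by their sample titles. The M2a group held 3 arrays of cultures that received 20 ng/ml IL-4 for the last 24 h, and the M0 group held 3 arrays of cultures that received no stimulus. Both groups began as CD11b+ Ly6C+ Ly6G- monocytes sorted by flow cytometry and were kept for 7 days with 10% FCS and 20 ng/ml M-CSF, the growth factor that keeps macrophages alive and drives their maturation, with IL-4 added on day 6. Mouse strain, sex and age were not given in the sources used here, and whether the 3 arrays of each group stand for separate animals is not stated. The p-values therefore rest on the spread between arrays of the same group, which may be technical. That spread was estimated per gene from all 36 arrays of the 12 groups. A gene that varied within another group therefore has a larger SE here. The other M-CSF macrophages of the series were used to show where M2a stood apart and in the shared estimate of spread. They were named IFNg (25 ng/ml IFN-γ), M1 (25 ng/ml IFN-γ with 100 µg/ml LPS), M2b (complexed immunoglobulin during culture and 25 ng/ml IFN-γ at the end) and M2c (dexamethasone). Mreg, Mreg_unpurified, Mreg_noIFNg and Mreg_LPS, kept with 5 ng/ml M-CSF, entered that estimate and the comparisons over all groups. All but Mreg_noIFNg received 25 ng/ml IFN-γ, and Mreg_LPS also received 100 µg/ml LPS. Mo-DC, kept with 20 ng/ml GM-CSF and 20 ng/ml IL-4 and then given 25 ng/ml IFN-γ, entered both as well. So did Monocytes, the freshly sorted cells.

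IL-4 is a cytokine of T helper 2 cells, mast cells, basophils and eosinophils. It binds IL-4Rα paired with the common γ chain or with IL-13Rα1, and the JAK kinases bound to these chains phosphorylate STAT6, which enters the nucleus and turns on genes of alternative activation, such as arginase 1, the resistin-like molecule Retnla and the chitinase-like proteins. The same cytokine is also known to make macrophages fuse into giant cells and to raise SOCS proteins, which switch cytokine receptors off.

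Each array gave 1 colour of fluorescence per spot. A level is log2 of the scanner's processed signal minus the array's 75th percentile, so 0 is the level of that percentile, 1 unit is a 2-fold step, and levels are compared between groups for 1 gene and not between genes. Between 53.4% and 57.7% of spots were well above background on the 6 arrays, and the 3 arrays per group limit the precision. M2a, M0, M1 and Monocytes arrays shared 1 slide for each of the 3 series numbers of the labels. Series 1 was scanned on another day than series 2 and 3, so series 1 and its scan day cannot be told apart. Over the probe levels, M2a array 1 correlated at 0.988 and 0.985 with M2a arrays 2 and 3, which correlated at 0.993 with each other, while the M0 arrays correlated at 0.991 to 0.993. M2a array 1 therefore stood somewhat apart from the other M2a arrays.

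The cultures carried the macrophage label on both sides. Of 12 macrophage markers examined, 11 were above background on every M2a array and all 12 on every M0 array; the exception was Cd163, above background on 1 M2a array. The summed signal of the 12 (log2) ranged from 10.22 to 10.38 on M2a arrays and from 10.26 to 10.35 on M0 arrays. Adgre1, which encodes a surface antigen of mouse macrophages, read 7.80, 7.81 and 7.67 on the M2a arrays, against 7.81, 7.95 and 7.90 on the M0 arrays. These ranges overlapped. Fcgr1 and Cd14 were the only macrophage markers called, and both were lower with IL-4; with the series number as a replicate block, 1 marker, Mrc1, was called higher as well.

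Of 17605 genes tested with limma, 2209 (12.5%) were called at a Benjamini-Hochberg adjusted p below 0.05. M2a was higher than M0 for 1189 genes (6.75%) and lower for 1020 (5.79%); with quantile normalization, the split was 1023 higher and 1324 lower. At least a 2-fold difference was reached by 423 of the higher genes and 536 of the lower ones. The M2a and M0 arrays did not overlap for 2173 of the 2209 called genes, against 6232 (35.4%) of all genes tested. The difference had 1 sign on all 3 slides for 2195 of the called genes. This follows by necessity for each gene without overlap, so it is no separate support for the calls. M2a array 1 carried part of these calls: without it, 1309 genes were called, 1203 of which were also called with all arrays. Leaving out M0 array 2 gave 1484. The median difference over all genes was 0.06.

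**Figure D1:**
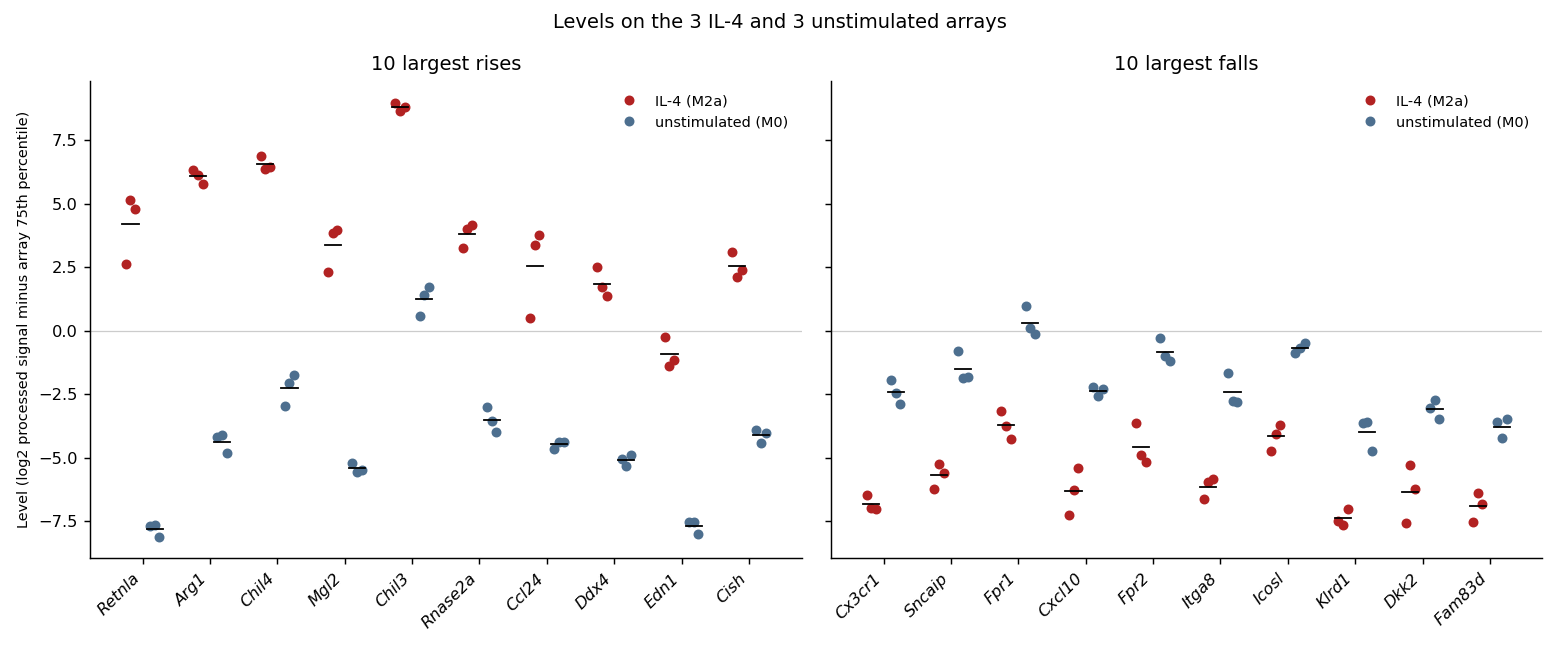
Level of the 10 largest rises (left panel) and the 10 largest falls (right panel) on each array, as log2 processed signal minus the array's 75th percentile; red points are the 3 M2a arrays, blue points the 3 M0 arrays, and black bars their means. The groups do not overlap for these genes, as their choice required, and for Retnla, Mgl2 and Ccl24 M2a array 1 lies below the other M2a arrays.

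The largest fitted rises included classic markers of alternative activation. Retnla, the secreted protein also called FIZZ1 or RELMα, read 2.62, 5.16 and 4.80 on the M2a arrays, against -7.66, -7.65 and -8.09 on the M0 arrays, where it was not well above background. It was at least 917-fold higher with IL-4 (adjusted p = 4.72e-14), where the bound sets the M0 arrays at the lowest signal found well above background on each or at the gene's own signal, whichever was higher. M2a array 1 was the lowest of the M2a arrays, and the fitted log2 difference was 11.99 with it and 12.78 without it. A second Retnla probe gave 11.45.

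Arg1, the enzyme that splits arginine into ornithine and urea, read 6.31, 6.15 and 5.79 on M2a arrays, against -4.19, -4.08 and -4.79 on M0 arrays. The M2a arrays lay close together and every M0 array was above background, so the 1388-fold difference (log2 10.44, SE 0.40, adjusted p = 5.50e-16) was measured on both sides. Chil3, the chitinase-like protein Ym1, read 8.98, 8.64 and 8.82 on M2a arrays, against 0.60, 1.41 and 1.74 on M0 arrays (189-fold, adjusted p = 0.000136). Chil4, or Ym2, read 6.88, 6.35 and 6.44 on M2a arrays, against -2.95, -2.05 and -1.74 on M0 arrays (446-fold, adjusted p = 2.60e-05). Chil3 and Chil4 are near-identical copies, so their probes may read each other's transcripts and the 2 values are not independent.

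Mgl2, a galactose-binding C-type lectin (CD301b), read 2.33, 3.87 and 3.96 on M2a arrays, against -5.20, -5.55 and -5.47 on M0 arrays, of which 2 of 3 were above background (444-fold, adjusted p = 2.51e-10). Rnase2a, an eosinophil-type ribonuclease known earlier as Ear11, read 3.27, 4.01 and 4.17 on M2a arrays, against -2.98, -3.54 and -3.98 on M0 arrays (159-fold, adjusted p = 4.72e-14). Ear10, another gene of this ribonuclease family, read 0.26, -2.48 and -2.61 on M2a arrays, against -7.12, -7.65 and -7.44 on M0 arrays, all not well above background. It was at least 16.4-fold higher (adjusted p = 8.95e-10); the fitted log2 difference was 5.79, and 4.86 without M2a array 1. Probes of this family may also share transcripts.

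Promoter windows were searched because STAT6 binds palindromes of TTC and GAA that are 4 bases apart, while other STAT proteins favour a spacing of 3 bases. Sequence is printed only for genes that rose and whose window holds a match. Both forms were searched in the 250 bases before the start of each gene in the RefSeq table of build GRCm38.p6; each form reads the same on both strands, and both forms can overlap. Of the tested genes, 11550 had a window under their symbol. The window of Retnla holds 1 match with the 4-base spacing, starting 145 bases before the gene start, and those of Chil3 and Chil4 share 1 match with the 3-base spacing inside an identical run of 44 bases. Matches are in capitals.
Retnla, chr16:48842359-48842608, plus strand: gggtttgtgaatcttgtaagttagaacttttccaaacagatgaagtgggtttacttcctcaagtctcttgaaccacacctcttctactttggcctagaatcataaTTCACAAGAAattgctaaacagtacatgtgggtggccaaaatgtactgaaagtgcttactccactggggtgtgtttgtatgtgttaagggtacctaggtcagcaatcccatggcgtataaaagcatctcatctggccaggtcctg
Chil3, chr3:106167565-106167814, minus strand: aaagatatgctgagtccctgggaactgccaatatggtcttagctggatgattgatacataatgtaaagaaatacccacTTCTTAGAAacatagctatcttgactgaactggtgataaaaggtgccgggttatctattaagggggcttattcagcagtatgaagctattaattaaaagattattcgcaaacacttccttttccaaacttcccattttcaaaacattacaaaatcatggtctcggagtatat
Chil4, chr3:106219480-106219729, minus strand: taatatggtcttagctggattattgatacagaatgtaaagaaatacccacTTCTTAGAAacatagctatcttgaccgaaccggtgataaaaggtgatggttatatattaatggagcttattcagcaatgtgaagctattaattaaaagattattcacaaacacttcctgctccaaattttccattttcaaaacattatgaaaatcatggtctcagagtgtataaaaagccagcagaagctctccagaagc

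Plac8, Isg20 and Il18, which fell, also hold the 4-base spacing and are not printed. Other genes that rose and hold the 4-base spacing include Edn1, Pdcd1lg2, Rbp4 and Clec7a, which are described among the results and are shown with 10 bases on either side of the match.
Edn1, chr13:42301281-42301310, plus strand: gtgactttgcTTCTGGAGAAactcttgatt
Pdcd1lg2, chr19:29410827-29410856, plus strand: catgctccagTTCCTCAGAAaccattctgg
Rbp4, chr19:38125422-38125451, minus strand: caggttgcgtTTCTAGAGAAtatttaacag
Clec7a, chr6:129472891-129472920, minus strand: catttcagttTTCTTCAGAAgttacagcct

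The 4-base form was found in 23 of 299 genes (7.69%) that rose at least 2-fold, in 29 of 392 (7.40%) that fell at least 2-fold and in 684 of 11550 (5.92%) of all tested genes with a window. The 3-base form was found in 21 of 299 (7.02%), 28 of 392 (7.14%) and 828 of 11550 (7.17%) of the same sets. A match describes the letters of the window and is not evidence of binding, and the absence of a match, as in the windows of Cish, Mgl2 and Socs1, says nothing of sites elsewhere.

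Of the 39 tested markers of alternative activation, 21 rose and 0 fell (limma), against 6.75% and 5.79% of all genes. The same shares are the background for every list count below. Their median difference was 1.88, or 1.84 with genes below background on 1 side set at their bound, against 0.06 over all genes. At an unadjusted p below 0.05, 24 were higher and 3 lower. Between 18 and 25 rose and at most 2 fell under every alternative tried, with 18 and 0 without M2a array 1.

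Among the further members, Pdcd1lg2, the PD-1 ligand PD-L2, read -0.14, -0.63 and -0.54 on M2a arrays, against -6.04, -6.74 and -8.28 on M0 arrays, all not well above background. It was at least 37.0-fold higher (adjusted p = 2.95e-07), with a fitted log2 difference of 6.58, or 5.95 without M0 array 3. Cd274, the other PD-1 ligand (PD-L1), read 4.60, 4.15 and 4.40 on M2a arrays, against 2.39, 2.61 and 2.63 on M0 arrays (3.58-fold, adjusted p = 6.25e-08). Flt1, the VEGF receptor 1, read 4.77, 4.45 and 4.41 on M2a arrays, against 1.08, -0.08 and -0.26 on M0 arrays (19.7-fold, adjusted p = 1.40e-09). Hbegf, a growth factor of the EGF family, read 2.91, 2.23 and 2.67 on M2a arrays, against -0.23, -0.71 and -0.54 on M0 arrays (8.54-fold, adjusted p = 1.82e-05). Clec7a, the β-glucan receptor Dectin-1, read 8.90, 8.08 and 8.01 on M2a arrays, against 6.52, 6.29 and 6.06 on M0 arrays (4.12-fold, adjusted p = 0.000434).

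Several textbook markers were not called. Mrc1, the mannose receptor CD206, read 4.97, 5.72 and 5.89 on M2a arrays, against 4.10, 4.13 and 4.10 on M0 arrays, without overlap, but its difference of 1.42 (SE 0.55) had an adjusted p of 0.0950, and of 0.0480 with the series number as a replicate block. Igf1 read 7.90, 7.35 and 7.29 on M2a arrays, against 7.10, 7.09 and 7.06 on M0 arrays (adjusted p = 0.759). Alox15, the lipoxygenase that is a leading IL-4 marker in human monocytes, and Cd209a were not well above background on any of the 6 arrays. Il10 read -3.51, -2.05 and -2.04 on M2a arrays, against -1.88, -0.98 and -1.10 on M0 arrays (adjusted p = 0.157).

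The chains and kinases that carry the IL-4 signal were measured on both sides and mostly did not pass the test. Of 16 tested members, Jak2 rose, Ptpn6 and Pik3cg fell, and 13 were not called, where 6.75% of all genes rose and 5.79% fell. The median difference was -0.03. With the series number as a replicate block, 3 rose, since Jak1 (0.27, adjusted p = 0.0389, against 0.0786 without the block) and Shc1 (0.27, adjusted p = 0.0221, against 0.143) were then called. Jak2 read 2.57, 2.38 and 2.54 on M2a arrays, against 0.97, 1.22 and 1.09 on M0 arrays (2.64-fold, adjusted p = 3.45e-08). Stat6 itself read 3.21, 3.29 and 3.18 on M2a arrays, against 3.26, 3.47 and 3.28 on M0 arrays (difference -0.11, SE 0.10, adjusted p = 0.556).

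Il4ra, which binds the cytokine, read 3.85, 2.78 and 2.84 on M2a arrays, against 3.27, 3.47 and 3.53 on M0 arrays, so that array 1 lay above all M0 arrays and the other M2a arrays below them (adjusted p = 0.514). Il13ra1 was not called with its brightest probe (-0.26, adjusted p = 0.620), while its second probe was lower in M2a (-0.63, adjusted p = 0.0372 over all probes). Ptpn6, the phosphatase SHP-1, read 4.14, 4.06 and 4.04 on M2a arrays, against 4.65, 4.61 and 4.61 on M0 arrays (1.45-fold lower, adjusted p = 0.00132). The call of Pik3cg, a subunit of a phosphoinositide kinase, had an adjusted p of 0.0461 and was lost on leaving out any single array of either group (0.0508 to 0.243).

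Several feedback inhibitors of cytokine signalling rose. Of 16 tested, 6 rose and 0 fell in limma (7 higher and 2 lower at an unadjusted p below 0.05), with a median of 0.30; Pias3 also fell with the replicate block (-0.37, adjusted p = 0.0246, against 0.0568). Cish, the SOCS-family protein CIS, read 3.10, 2.13 and 2.40 on M2a arrays, against -3.90, -4.42 and -4.00 on M0 arrays (101-fold, adjusted p = 4.84e-13). Socs2 read 1.48, 0.48 and 0.12 on M2a arrays, against -3.72, -4.92 and -4.72 on M0 arrays (35.4-fold, adjusted p = 8.87e-09), and a second, dimmer probe gave a log2 difference of 2.78.

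Socs1, which binds and blocks JAK kinases, read 3.49, 3.14 and 3.33 on M2a arrays, against -0.39, -0.17 and -0.17 on M0 arrays (11.8-fold, adjusted p = 1.77e-07). Socs3, the best known inhibitor of IL-6 receptor signalling, read 0.07, -0.60 and -0.54 on M2a arrays, against -1.15, -0.47 and -0.70 on M0 arrays, which overlapped (adjusted p = 0.566). Ptpn2, a phosphatase of JAK and STAT proteins, was 1.58-fold higher (adjusted p = 0.00439). Socs6 was 1.32-fold higher (adjusted p = 0.0355), a call lost without M0 array 1 (0.204), M2a array 2 (0.135) or M2a array 3 (0.136). Pias4 was 1.25-fold higher (adjusted p = 0.0312), a call lost without M0 array 1 (0.140), M0 array 2 (0.110), M2a array 1 (0.123) or M2a array 3 (0.0656).

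Of 36 transcription factors linked to IL-4 macrophages, 11 rose and 2 fell, against 6.75% and 5.79% of all genes, with a median of 0.40. The number that rose was 6 without M2a array 1 and 7 without M0 array 2. Irf4, which acts downstream of STAT6 in macrophages, read -0.42, -1.22 and -1.33 on M2a arrays, against -4.83, -7.37 and -6.30 on M0 arrays, of which 1 was above background. Its log2 difference was 5.18 (adjusted p = 4.41e-08), 5.85 without M0 array 1 and 4.58 without M0 array 2. Batf3, a partner of IRF4 at shared DNA sites, read 3.42, 2.69 and 2.64 on M2a arrays, against 0.96, 0.65 and 0.65 on M0 arrays (4.49-fold, adjusted p = 0.000100). Bhlhe40 read 3.27, 3.29 and 3.23 on M2a arrays, against 1.54, 1.31 and 1.06 on M0 arrays (3.89-fold, adjusted p = 2.71e-05).

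Egr2, an early growth response factor, read 6.64, 6.41 and 6.40 on M2a arrays, against 4.85, 4.59 and 4.66 on M0 arrays. Its 3.45-fold difference (limma adjusted p = 0.0200) had an adjusted p of 0.0791 without M2a array 1, 0.0667 without M0 array 2 and 0.0586 without M0 array 3. The log2 difference itself hardly moved, at 1.705, 1.732 and 1.762 in these settings, against 1.785 with all arrays. Its SE of 0.51 is shared with the other groups, with an SD of 0.14 in M2a, 0.13 in M0 and 1.61 in Monocytes.

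**Figure D2:**
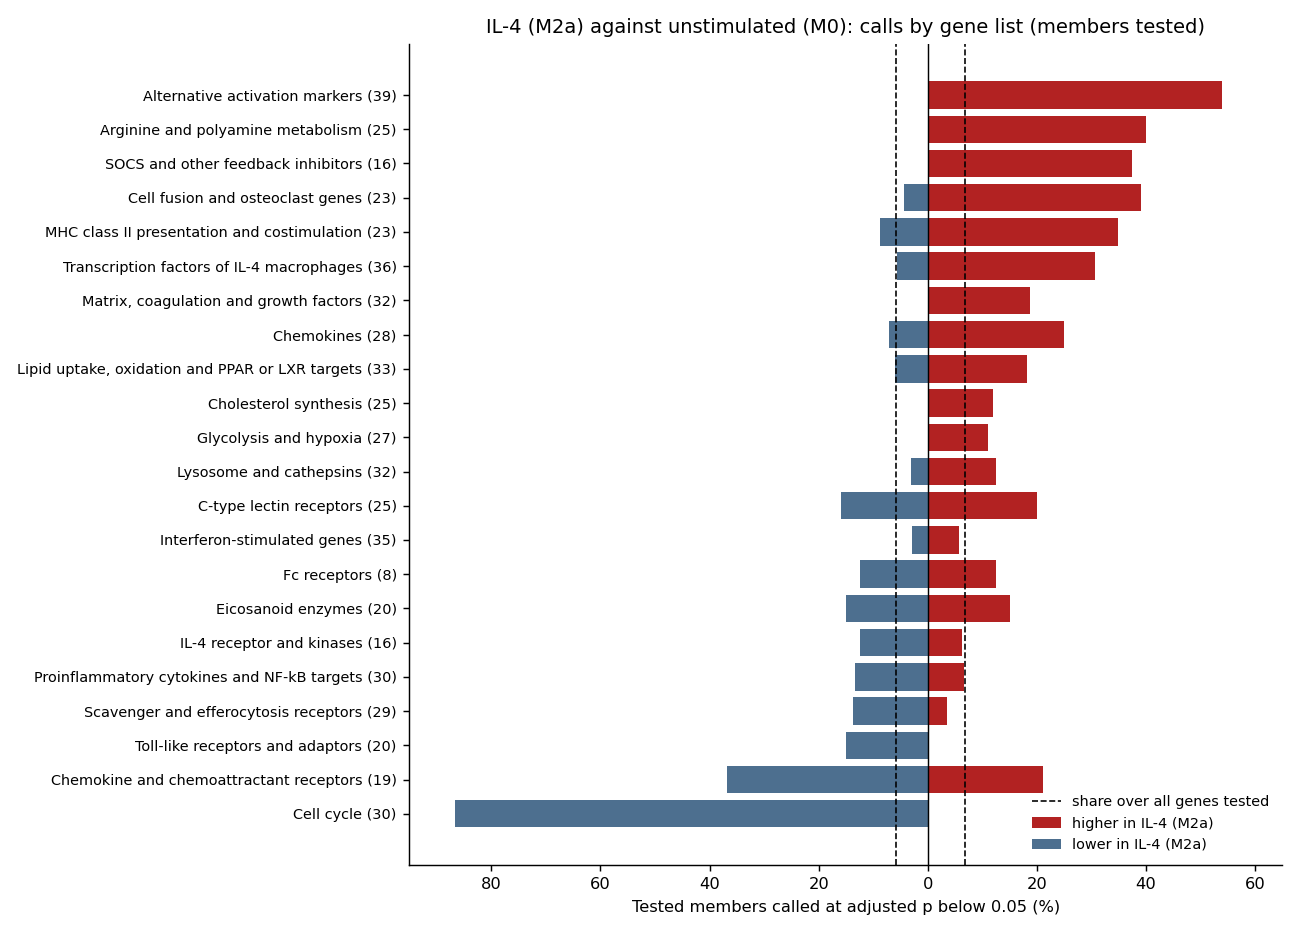
Share of the tested members of 22 gene lists called higher (red, right of 0) or lower (blue, left of 0) in M2a than in M0 at an adjusted p below 0.05, in percent, with the number of members tested in brackets; dashed lines mark the shares over all genes, 6.75% higher and 5.79% lower. Alternative activation markers have 53.8% of members higher and cell cycle genes 86.7% lower.

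Genes of arginine use rose around Arg1. Of 25 genes of arginine and polyamine metabolism, 10 rose and 0 fell in limma (10 higher and 1 lower at an unadjusted p below 0.05), with a median of 0.26; 8 rose and 1 fell without M2a array 1, and 10 rose and 3 fell with quantile normalization. Slc7a2, the CAT2 arginine transporter, read 0.88, 0.46 and 0.11 on M2a arrays, against -4.29, -4.84 and -5.48 on M0 arrays (40.7-fold, adjusted p = 3.73e-09). Ass1, which rebuilds arginine from citrulline together with argininosuccinate lyase, read 2.95, 1.31 and 1.29 on M2a arrays, against 0.62, -0.51 and -0.32 on M0 arrays (3.79-fold, adjusted p = 0.00274). Arg2, the mitochondrial arginase, was above background on all 3 M2a arrays and on 0 of the 3 M0 arrays. Its call (adjusted p = 0.0340) was lost without M2a array 1 (0.179), M2a array 3 (0.0683), M0 array 2 (0.112) or M0 array 3 (0.182). Arg2 was at least 1.90-fold higher, its fitted log2 difference was 2.05, or 2.65 without M0 array 1, and its direction reversed to -0.20 with normexp background correction.

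Genes of cell fusion and of osteoclasts, the bone-resorbing cells that share the fusion machinery with giant cells, rose in part. Of 23 tested, 9 rose and Tnfrsf11a, the receptor RANK, fell, with a median of 0.56. Leaving out single arrays left 7 to 9 that rose. The number that fell was 0 without M2a array 1, without M0 array 2 or with normexp background correction, so the call of Tnfrsf11a was lost there. Ocstamp, a membrane protein needed for fusion, read 6.25, 4.60 and 4.15 on M2a arrays, against -0.13, -1.11 and -1.39 on M0 arrays (58.7-fold, adjusted p = 1.07e-09); its log2 difference was 5.88, and 5.25 without M2a array 1. Dcstamp, its partner in fusion, read 1.56, 0.57 and 0.08 on M2a arrays, against -1.37, -3.07 and -3.61 on M0 arrays (log2 3.42, adjusted p = 0.000335, and 4.08 without M0 array 1). Cdh1, the adhesion protein E-cadherin, read 1.79, 0.58 and 0.45 on M2a arrays, against -5.46, -5.40 and -5.60 on M0 arrays, of which 2 of 3 were above background (86.1-fold, adjusted p = 2.64e-07).

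Car2, the carbonic anhydrase that osteoclasts use to make acid, read 1.57, -0.75 and -0.85 on M2a arrays, against -4.97, -5.55 and -5.05 on M0 arrays, of which 2 of 3 were above background (log2 5.18, adjusted p = 3.30e-05, and 4.39 without M2a array 1). Atp6v0d2, a proton pump subunit linked to fusion, read 4.15, 3.83 and 3.86 on M2a arrays, against 2.58, 2.59 and 2.44 on M0 arrays (2.65-fold, adjusted p = 0.00186). The 9 osteoclast markers had a summed signal of 4.98 to 6.64 on M2a arrays and of 2.79 to 3.08 on M0 arrays, or 3.78 to 4.55 and 2.69 to 2.91 without Ocstamp; 8 were above background on every M2a array and all 9 on every M0 array, and 4 of them rose. Nfatc1, the master factor of osteoclasts, named after its values were seen, read 0.99, 1.16 and 1.1 on M2a arrays, against 1.45, 1.36 and 1.49 on M0 arrays (adjusted p = 0.135). The part of osteoclast-like cells in these rises was not tested.

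**Figure D3:**
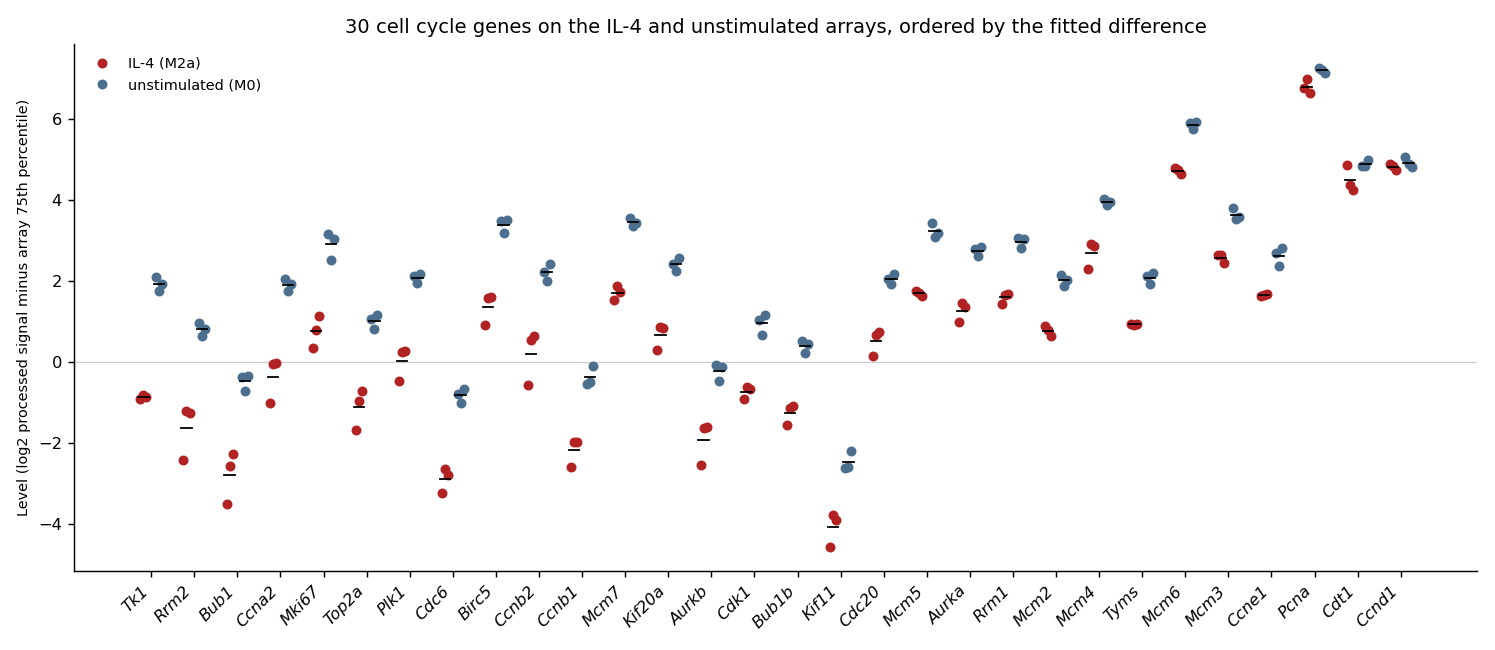
Level of 30 cell cycle genes on each array, as log2 processed signal minus the array's 75th percentile, ordered by the fitted difference; red points are the 3 M2a arrays, blue points the 3 M0 arrays and black bars their means. All but Cdt1 and Ccnd1 have M2a and M0 points that do not overlap, with M2a below.

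Cell cycle genes were lower in IL-4 macrophages almost throughout the list. Of 30 tested, 26 fell and 0 rose in limma (28 lower and 0 higher at an unadjusted p below 0.05), against 5.79% and 6.75% of all genes, and the median difference was -1.67, against 0.06 over all genes. The 26 fell 1.96-fold to 6.91-fold. Over the whole list the M2a and M0 arrays did not overlap for 28 of 30 genes, against 35.4% of all genes tested. The count stayed between 24 and 28 under every alternative tried, including 26 without M2a array 1 and 24 with series 2 and 3 alone. In these bulk cultures, fewer cycling cells and less of these RNAs per cell cannot be told apart.

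Tk1, a thymidine kinase made in S phase, read -0.92, -0.82 and -0.86 on M2a arrays, against 2.10, 1.75 and 1.92 on M0 arrays (6.91-fold lower, adjusted p = 7.96e-07). Rrm2, the ribonucleotide reductase subunit that supplies deoxynucleotides, read -2.42, -1.20 and -1.26 on M2a arrays, against 0.96, 0.64 and 0.83 on M0 arrays (5.41-fold lower, adjusted p = 6.97e-05). Bub1, a kinase of the spindle checkpoint, read -3.51, -2.58 and -2.28 on M2a arrays, against -0.38, -0.71 and -0.35 on M0 arrays (4.95-fold lower, adjusted p = 1.57e-05). Ccna2, cyclin A2, read -1.0, -0.05 and -0.02 on M2a arrays, against 2.06, 1.75 and 1.94 on M0 arrays (4.84-fold lower, adjusted p = 0.000162). M2a array 1 was the lowest array for Rrm2, Bub1 and Ccna2. The 4 members without a call, named after their values were seen, were Ccnd1, Cdt1, Pcna and Mcm6; Mcm6 did not overlap (4.79, 4.75 and 4.65 on M2a arrays, against 5.90, 5.75 and 5.92 on M0 arrays) but had an SE of 1.42, since the spread is shared with the other groups.

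Among 28 chemokines, 7 rose and 2 fell, against 6.75% and 5.79% of all genes, with a median of 0.16. The number that rose was 4 without M2a array 1 or without M0 array 1. Ccl24, eotaxin-2, which draws eosinophils, read 0.50, 3.39 and 3.76 on M2a arrays, against -4.63, -4.38 and -4.35 on M0 arrays (129-fold, adjusted p = 4.07e-07). Array 1 was well below the other M2a arrays, and the log2 difference was 7.01 with all arrays, 8.03 without M2a array 1 and 6.40 without M2a array 3. Ccl7, which draws monocytes, read 5.86, 6.03 and 6.38 on M2a arrays, against 2.77, 3.12 and 4.00 on M0 arrays (6.95-fold, adjusted p = 0.00145). Ccl17 and Ccl22, ligands of CCR4, were carried by array 1: Ccl17 read -1.10, -4.19 and -4.90 on M2a arrays, against -5.74, -5.37 and -5.82 on M0 arrays, and Ccl22 was above background on that M2a array alone. Neither was above background on an M0 array, and the bounds were at least 4.45-fold higher for Ccl17 and at least 1.60-fold higher for Ccl22. Without it their adjusted p were 0.306 and 0.105, against 0.0253 and 0.00675 with all arrays, and Ccl22 reversed to -0.12 with normexp background correction. The call of Ccl17 was also lost without any 1 of the M0 arrays (adjusted p of 0.0513 to 0.0795), and its fitted log2 difference of 2.24 was 3.00 without M2a array 3, where that of Ccl22 was 3.64, against 2.79 with all arrays.

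Cxcl10, an interferon-induced chemokine for T cells, was 1 of the 2 chemokines that fell. It read -7.24, -6.25 and -5.39 on M2a arrays, all not well above background, against -2.21, -2.56 and -2.27 on M0 arrays, and was at least 8.30-fold lower in M2a (adjusted p = 0.000837). The interferon-stimulated genes as a list showed no such fall: of 35 tested, 2 rose and 1 fell, against 6.75% and 5.79% of all genes. Their median was 0.00, and 0 rose without M0 array 1 or 2. Isg20, which fell, was 1.85-fold lower (adjusted p = 0.0137, but 0.0778 without M0 array 3 and 0.0588 without M2a array 2).

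Chemoattractant receptors moved both ways, with 7 of 19 lower, 4 higher and a median of -0.16; 7 were lower on leaving out any single array, while 1 was higher without M2a array 1 or M0 array 1 and 2 were without M0 array 2. Fpr1, the receptor for formyl peptides of bacteria, read -3.14, -3.75 and -4.26 on M2a arrays, against 0.96, 0.13 and -0.13 on M0 arrays (16.4-fold lower, adjusted p = 0.000614). Fpr2 read -3.63, -4.88 and -5.15 on M2a arrays, against -0.30, -0.98 and -1.19 on M0 arrays (13.3-fold lower, adjusted p = 0.000148); as related genes, their probes may share transcripts. Ltb4r1, the high-affinity receptor for leukotriene B4, went the other way and read 2.60, 2.72 and 2.70 on M2a arrays, against -1.43, -1.17 and -1.02 on M0 arrays (14.7-fold, adjusted p = 7.84e-08). Cx3cr1, the fractalkine receptor, read by its brighter probe -6.48, -6.98 and -7.03 on M2a arrays, none well above background, against -1.95, -2.43 and -2.88 on M0 arrays (at least 7.96-fold lower, adjusted p = 3.44e-08), but its second, dimmer probe gave -0.74 with an adjusted p of 0.424.

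Of 20 Toll-like receptors and adaptors, which sense bacterial products, 3 fell and 0 rose in limma (6 lower and 1 higher at an unadjusted p below 0.05), against 5.79% and 6.75% of all genes, with a median of -0.01. With quantile normalization 6 fell, and 1 rose with normexp background correction, the mean of all probes or the slide as a random block. Cd14, the co-receptor for lipopolysaccharide, read 1.98, 2.55 and 2.20 on M2a arrays, against 5.28, 4.64 and 4.60 on M0 arrays (6.04-fold lower, adjusted p = 1.64e-05). Tlr2, which senses bacterial lipoproteins, read -0.09, -1.26 and -1.34 on M2a arrays, against 1.53, 1.15 and 0.92 on M0 arrays (4.27-fold lower, adjusted p = 0.00186).

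Inflammatory genes downstream of these sensors mostly did not pass the test. Of 30 proinflammatory cytokines and NF-κB targets, 2 rose (6.67%) and 4 fell (13.3%), against 6.75% and 5.79% of all genes, with a median of 0.10. Leaving out single arrays left 0 to 4 that rose, with 0 without M2a array 1, M0 array 2 or M0 array 3. Nfkbiz, an inducible nuclear IκB protein, read -4.82, -4.68 and -3.49 on M2a arrays, against -1.96, -2.03 and -1.33 on M0 arrays (5.89-fold lower, adjusted p = 0.000128). Il18 read -0.58, -0.32 and -0.23 on M2a arrays, against 0.49, 0.74 and 0.73 on M0 arrays (2.04-fold lower, adjusted p = 0.000973). Relb, an NF-κB subunit, was 1.83-fold lower (adjusted p = 0.00346).

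Genes of class II antigen presentation and costimulation leaned higher, with 8 of 23 rising and 2 falling, against 6.75% and 5.79% of all genes, and a median of 0.42. The rises include the PD-1 ligands Pdcd1lg2 and Cd274, which were also counted among the alternative activation markers. The number that rose was 3 without M2a array 1 and 5 without M0 array 3. Cd74, the invariant chain that guides class II molecules, read 3.14, 2.69 and 2.47 on M2a arrays, against 0.61, 0.52 and -0.66 on M0 arrays (6.09-fold, adjusted p = 0.00322). Icosl, the ligand of the T cell costimulator ICOS, fell, with -4.71, -4.06 and -3.69 on M2a arrays, against -0.86, -0.66 and -0.47 on M0 arrays (11.2-fold lower, adjusted p = 1.78e-07). Of 11 tested dendritic cell markers, 3 rose, Zbtb46, Itgax and Ccr7, against 6.75% of all genes, but 0 rose without M2a array 1 or M0 array 2 and 1 without M0 array 3. The summed signal was 7.88 to 8.46 on M2a arrays and 6.84 to 7.09 on M0 arrays, while Clec9a, Cd209a and Btla were not well above background in either group. The part of dendritic cells in these rises was not tested.

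Of 25 C-type lectins, 5 rose and 4 fell, against 6.75% and 5.79% of all genes, with a median of 0.03. The number that fell was 2 on leaving out M2a array 1 or 3 or any M0 array. Clec10a, the close relative of Mgl2, read 3.37, 5.16 and 5.08 on M2a arrays, against 2.54, 2.66 and 2.78 on M0 arrays (3.68-fold, adjusted p = 0.000935), and the 2 genes' probes may share transcripts. Of 29 scavenger and efferocytosis receptors, 1 rose and 4 fell, against 6.75% and 5.79% of all genes, with a median of -0.19. Abca1, the cholesterol exporter, read 0.36, 1.30 and 0.84 on M2a arrays, against 3.07, 3.14 and 2.75 on M0 arrays (4.44-fold lower, adjusted p = 0.000188).

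Olr1, the scavenger receptor LOX-1, rose, with 0.09, -3.84 and -4.16 on M2a arrays, against -5.13, -7.20 and -8.26 on M0 arrays, of which 1 was above background. Its log2 difference of 4.23 (adjusted p = 0.000999) was 2.86 without M2a array 1, and between 3.53 and 5.09 without M2a array 2 or 3 or M0 array 1 or 3, so its size rests on array 1 more than on the others. Among 8 Fc receptors, 1 rose, the inhibitory Fcgr2b, and 1 fell, the activating Fcgr1, against 6.75% and 5.79% of all genes, so these are values of single genes and not of the family. Fcgr2b read 4.29, 4.03 and 4.28 on M2a arrays, against 2.17, 1.66 and 1.76 on M0 arrays (5.06-fold, adjusted p = 0.0121). Fcgr1, the high-affinity receptor, read 5.93, 5.84 and 5.78 on M2a arrays, against 6.97, 7.16 and 7.07 on M0 arrays (2.33-fold lower, adjusted p = 0.00299).

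Of 32 genes of matrix, coagulation and growth factors, 6 rose and 0 fell in limma (10 higher and 2 lower at an unadjusted p below 0.05), with a median of 0.58, or 0.40 at the bounds and 0.34 without M2a array 1. Mmp13, collagenase 3, read 6.45, 5.59 and 5.73 on M2a arrays, against 3.39, 3.58 and 3.41 on M0 arrays (5.51-fold, adjusted p = 8.31e-08). F10, coagulation factor X, read 5.21, 5.20 and 5.23 on M2a arrays, against 3.28, 2.45 and 2.46 on M0 arrays (5.59-fold, adjusted p = 5.61e-06). F7, which activates factor X, read 3.83, 3.99 and 4.04 on M2a arrays, against 2.35, 1.96 and 2.19 on M0 arrays (3.45-fold, adjusted p = 0.000935). Edn1, the vasoconstrictor endothelin-1, read -0.24, -1.39 and -1.15 on M2a arrays, against -7.53, -7.52 and -7.98 on M0 arrays, all not well above background (at least 26.4-fold higher, adjusted p = 2.32e-11).

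Of 33 genes of lipid uptake, oxidation and PPAR or LXR targets, 6 rose and 2 fell (median 0.18), with 3 rising without M2a array 2 or without M0 array 2. Over all genes 6.75% rose and 5.79% fell, which is the background for this list and the next ones. Abcd2, a peroxisomal fatty acid transporter, was 2.81-fold higher (adjusted p = 0.000204) and Mylip, an LXR target that degrades the LDL receptor, was 2.17-fold lower (adjusted p = 0.00228). Of 25 genes of cholesterol synthesis, 3 rose and 0 fell in limma (8 higher and 0 lower at an unadjusted p below 0.05; median 0.27), with 1 rising without M2a array 3 or without M0 array 2; Mvd, the mevalonate decarboxylase, was 2.10-fold higher (adjusted p = 2.71e-05). Of 27 genes of glycolysis and hypoxia, 3 rose and 0 fell (5 higher and 4 lower at an unadjusted p below 0.05; median 0.08), while 5 fell with quantile normalization and 5 rose and 4 fell with the replicate block; Hk3, a hexokinase, was 1.43-fold higher (adjusted p = 0.00173). Of 32 lysosome and cathepsin genes, 4 rose and 1 fell (median 0.14), but 1 rose without M2a array 1, 2 without M0 array 1 or 3, and 11 with normexp background correction; Ctsc, which activates granule proteases, was 2.03-fold lower (adjusted p = 0.00274).

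Genes of eicosanoids, the lipid mediators that include prostaglandins and leukotrienes, were divided. Of 20 tested, 3 were higher and 3 lower (median 0.11), against 6.75% and 5.79% of all genes. The lower count was 1 without M2a array 1 or 2 or M0 array 2 or 3. Ptgs1, or COX-1, read 2.26, 2.60 and 2.11 on M2a arrays, against 0.31, -0.35 and -0.70 on M0 arrays (5.92-fold, adjusted p = 2.71e-05). Hpgd, which inactivates prostaglandins, read -3.69, -5.46 and -5.30 on M2a arrays, of which 1 was above background, against -1.65, -2.24 and -2.79 on M0 arrays (6.02-fold lower, adjusted p = 0.00130).

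Further genes stood among the largest changes without belonging to a list. Ddx4, an RNA helicase known from germ cells, read 2.50, 1.71 and 1.35 on M2a arrays, against -5.03, -5.33 and -4.89 on M0 arrays, of which 2 of 3 were above background (122-fold, adjusted p = 1.04e-13). Rbp4, the plasma carrier of retinol, read -1.28, -0.69 and 0.60 on M2a arrays, against -6.08, -7.78 and -6.81 on M0 arrays, all not well above background (at least 36.5-fold higher, adjusted p = 4.70e-07). Sncaip, known as synphilin-1, a binding partner of α-synuclein, read -6.23, -5.24 and -5.59 on M2a arrays, of which 1 was above background, against -0.78, -1.86 and -1.82 on M0 arrays (18.4-fold lower, adjusted p = 0.000445). Itga8, an integrin chain, was at least 8.06-fold lower in M2a (adjusted p = 0.00133).

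Klrd1, the NK receptor chain CD94, was at least 2.72-fold lower in M2a (adjusted p = 1.37e-07). It read -7.48, -7.63 and -7.01 on M2a arrays, none well above background, against -3.61, -3.57 and -4.71 on M0 arrays. The 12 tested T and NK cell markers gave 0 calls in limma (0 also at an unadjusted p below 0.05), with a summed signal of 4.46 to 4.83 on M2a arrays and 4.07 to 4.33 on M0 arrays. Fam83d, a protein of the mitotic spindle, was at least 3.12-fold lower (adjusted p = 1.20e-05). Dkk2, an inhibitor of Wnt signalling, had a log2 difference of -3.27 (adjusted p = 4.87e-07), or -2.67 without M2a array 1. It read -7.55, -5.28 and -6.21 on M2a arrays, of which 1 was above background, so the size of its fall is uncertain.

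Of 9 tested Ly6C-high monocyte markers, Chil3 rose and Plac8 fell, and 7 were not called, with a median of -1.13. Their summed signal was 8.68 to 9.0 on M2a arrays and 4.30 to 5.46 on M0 arrays, but without Chil3 that of the other 8 was 3.19 to 3.83 on M2a arrays and 4.18 to 5.35 on M0 arrays, and Vcan was not well above background in either group. Plac8 read -1.50, -1.10 and 0.30 on M2a arrays, against 1.25, 2.12 and 2.65 on M0 arrays (6.82-fold lower, adjusted p = 0.00102). Chil3 averaged 8.81 ± 0.17 in M2a and 9.09 ± 0.04 in freshly sorted monocytes (SD, n = 3 each).

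Markers of other cells that a sorted culture could hold were also examined. The 13 tested neutrophil markers gave 0 calls in limma (0 higher and 1 lower at an unadjusted p below 0.05), with a summed signal of 1.90 to 3.99 on M2a arrays and 2.53 to 2.83 on M0 arrays. The 13 tested mast cell, basophil and eosinophil markers gave 0 calls (0 also at an unadjusted p below 0.05). Of 6 B cell markers Cd79b fell, with a summed signal of -0.31 to 0.41 on M2a arrays and 0.97 to 1.27 on M0 arrays. Of 11 erythroid and megakaryocyte markers Epor fell, with a sum of 5.26 to 6.10 on M2a arrays and 6.68 to 7.00 on M0 arrays. The median of this list was 0.24 and 7 of the 11 were higher in M2a, so the lower sum does not stand for the list as a whole. The call of Epor was lost without M2a array 2 or 3 or M0 array 2. Of 11 stromal and endothelial markers Vwf and Pecam1 rose, with a sum of 5.30 to 5.50 on M2a arrays and 4.74 to 4.97 on M0 arrays, so the sums of these 3 lists did not overlap between the groups. The part of these cells in the results was not tested.

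**Figure D4:**
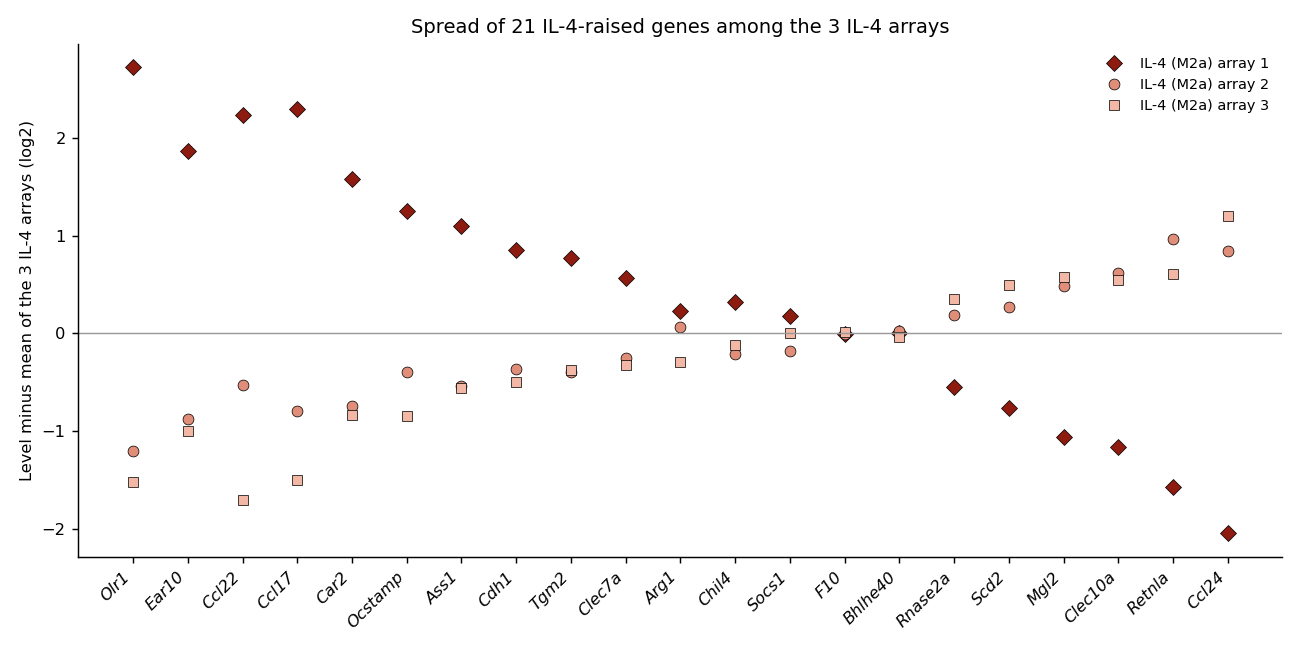
Level of 21 IL-4-raised genes on each of the 3 M2a arrays minus the mean of those arrays (log2); the dark diamond is array 1, the circle array 2 and the pale square array 3. The genes were picked after their values were seen; array 1 is the highest from Olr1 to Socs1 on the left and the lowest from Rnase2a to Ccl24 on the right.

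The M2a arrays differed among themselves in a patterned way. Of the 423 genes that rose at least 2-fold, array 1 was at least 1 log2 unit above both other M2a arrays for 79 genes (18.7%) and at least 1 unit below both for 18. The same counts were 0 above and 5 below for array 2, and 6 above and 6 below for array 3. Over all genes tested, array 1 was above both others by that much for 3.24% and below for 2.06%. Of the 536 genes that fell at least 2-fold, array 1 was at least 1 unit below both others for 55 (10.3%), against 2 for array 2 and 5 for array 3. On the M0 side the same count of the 423 genes was 18 above for array 1, 1 for array 2 and 6 for array 3.

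Ocstamp, Car2, Olr1, Ccl17 and Ccl22 were higher on array 1 than on the other M2a arrays, while Retnla, Mgl2, Clec10a, Ccl24, Ccl7 and Mrc1 were lower there. Arg1, Chil3, Chil4, F10 and Bhlhe40 spanned 0.02 to 0.53 log2 units among the M2a arrays, less than their difference from M0. Series 1 was hybridised on its own slide and scanned on its own day, and the M2a array lay at position 1 of that slide and at position 4 of the other 2 slides; the part of slide, scan day or position in the pattern was not tested. Series 2 and 3 alone, which share a scan day, gave 958 called genes, 867 of them also called with all arrays.

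Against every other M-CSF group at once, M2a stood apart for 623 genes (3.54%), of which 437 were higher in M2a (2.48%) and 186 lower (1.06%). Without M2a array 1 the count was 381. IFNg, M2b and M2c lay on other slides than M2a, so slide and group cannot be told apart in those contrasts. By markers of alternative activation, 13 of 39 stood higher than in each of the 5 groups, and 2 of 16 feedback inhibitors did, Cish and Socs2.

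Retnla averaged 4.19 ± 1.38 in M2a and between -7.90 and -7.17 in the 5 other groups (SD, n = 3 each), where 0 arrays had it well above background. Mgl2 averaged 3.39 ± 0.92 in M2a, against -5.41 ± 0.19 in M0, -5.62 ± 0.15 in IFNg, -6.81 ± 0.51 in M1, -4.70 ± 1.16 in M2b and -6.34 ± 0.10 in M2c (SD, n = 3 each). Arg1 was also measurable in the other groups, with 6.08 ± 0.27 in M2a, against -4.35 ± 0.38 in M0, -1.86 ± 0.37 in IFNg, -4.19 ± 0.09 in M1, 1.23 ± 0.10 in M2b and -1.67 ± 0.68 in M2c (SD, n = 3 each); the smallest of the 5 differences, to M2b, was 4.85.

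Some of the genes named above were higher in another group or did not pass the test against it. Socs1 averaged 3.32 ± 0.18 in M2a, lower than the 7.17 ± 0.49 of M1 (adjusted p = 1.22e-09) and the 5.90 ± 0.35 of IFNg (adjusted p = 3.60e-06) (SD, n = 3 each). Chil3 averaged 8.81 ± 0.17 in M2a and 6.18 ± 0.13 in M2c (SD, n = 3 each), a difference of 2.63 that did not pass (adjusted p = 0.110). The SE of 1.26 behind this p-value is shared with the other groups, and the SD of Chil3 was 2.62 to 2.81 in the Mreg groups. This result therefore does not show that Chil3 was alike in M2a and M2c. Mrc1 averaged 5.53 ± 0.49 in M2a and 5.34 ± 0.19 in M2c, a difference of 0.19 (adjusted p = 0.829), against 1.61 ± 0.30 in IFNg and -1.01 ± 0.85 in M1 (SD, n = 3 each).

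On the lower side, Fpr2 averaged -4.55 ± 0.81 in M2a, against -0.82 ± 0.47 in M0 and 0.78 to 6.13 in the other 4 groups (SD, n = 3 each). Icosl averaged -4.15 ± 0.52 in M2a and -0.66 ± 0.20 in M0, against -0.08 to 0.92 in the other 4 groups (SD, n = 3 each).

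**Figure D5:**
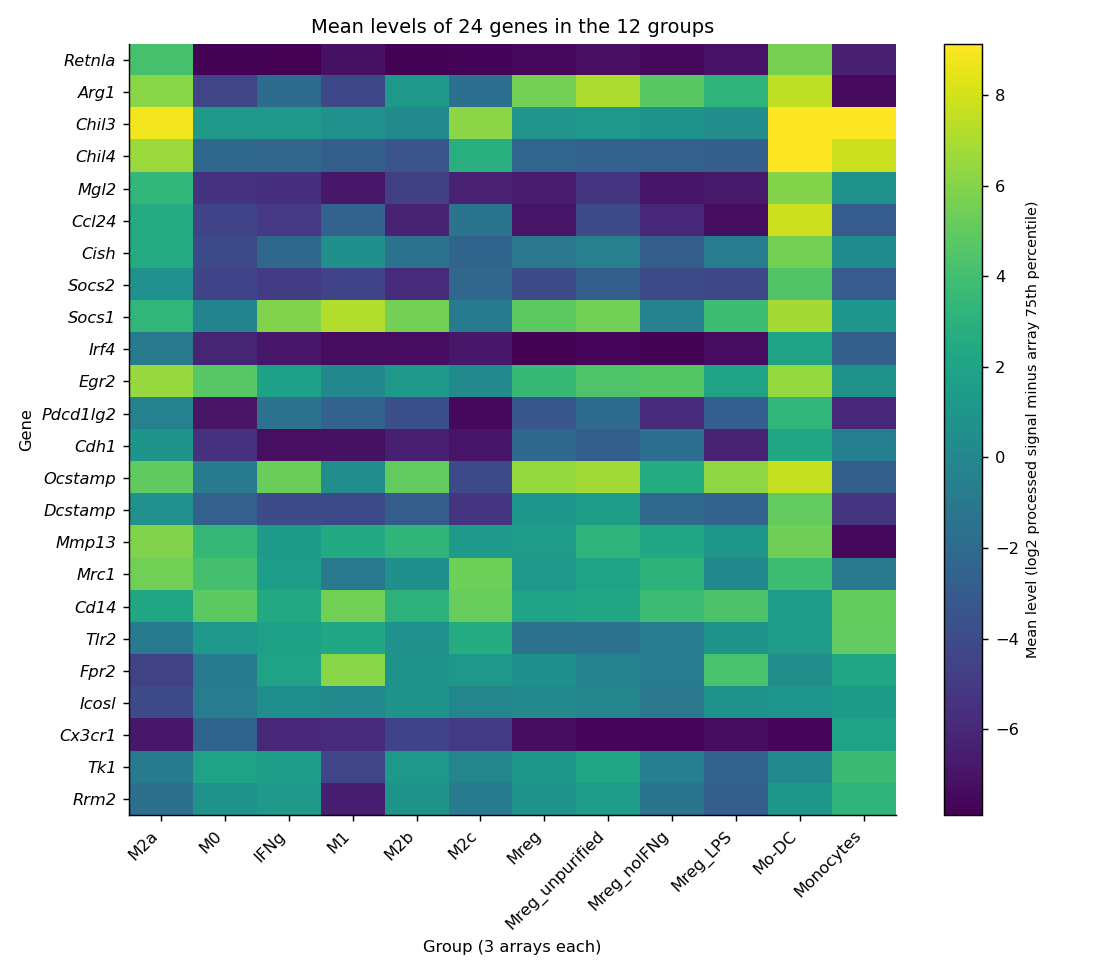
Mean level of 24 genes in the 12 groups of the series (3 arrays each), as log2 processed signal minus the array's 75th percentile; colours compare groups along a row and not genes with each other. Retnla is bright in M2a and Mo-DC alone, at 4.19 and 5.64.

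Cells that received IL-4 in another setting gave a side view. Mo-DC, monocyte-derived cells kept with 20 ng/ml GM-CSF and 20 ng/ml IL-4 through the culture and then 25 ng/ml IFN-γ, were the only other group that received IL-4. Retnla averaged 4.19 ± 1.38 in M2a and 5.64 ± 1.25 in Mo-DC (SD, n = 3 each), and Rbp4 averaged -0.46 ± 0.96 in M2a and 8.78 ± 0.43 in Mo-DC (SD, n = 3 each). Growth factor, length of IL-4 exposure and IFN-γ all differ between these groups, so the values are given side by side. Of the 1189 genes that rose with IL-4, the group with the highest mean of the 12 was M2a for 309 (26.0%), Mo-DC for 280 (23.5%) and Mreg_LPS for 232 (19.5%). Of the genes without a call, M2a was the highest group for 734 (4.77%), Mo-DC for 1331 (8.65%) and Mreg_LPS for 3434 (22.3%). The call itself picks genes with a high M2a mean, so the larger share of M2a among the genes that rose follows from that choice.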

How the data were processed

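The deposited scanner files of 36 Agilent 1-colour mouse arrays (Cy3; RNeasy extraction and Quick Amp labelling, per the labels' protocols) were used. The authors' intensity values were extracted with Feature Extraction 10.5.1.1, per the file headers, together with spot flags. A series table of log2 values, deposited by the authors, had columns with nearly equal quantiles and tracked the processed intensity at r of 0.997 to 1.000; it served as an alternative only.

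Each array's processed intensity was taken as log2 minus its 75th percentile. Of 41174 probes, 26478 were well above background on at least 3 arrays, and the brightest probe per gene gave 17605 genes. Outlier-flagged spots were left out (529 of 260274 on the 6 arrays), and 0 spots were saturated. Probes were named by accession (24375), symbol (6301), older symbol (2426) or as in the file (8072). All 36 arrays entered 1 limma 3.58.1 fit (R 4.3.3) with a mean per group, and p-values were adjusted by Benjamini-Hochberg over all genes. On simulated data with 200 of 17605 genes changed for M2a against M0, 16 of 50 were recovered at a log2 change of 0.585, 30 of 50 at 1, 43 of 50 at 2 and 50 of 50 at 4, with 5 false calls. The simulated noise was independent between arrays, while arrays of a slide correlated at 0.229 in the data, where 2209 genes were called. These rates may therefore not carry over to the data.

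The text names, per direction, the 10 largest called changes without overlap, up to 4 called members of each list with the largest change, any measured member of the receptor, feedback inhibitor and alternative activation lists, and 5 genes per direction that stood apart most from the other M-CSF groups. Adgre1, Cd163, Nfatc1, Tnfrsf11a, the uncalled cell cycle genes and the marker genes of other cells were named after their values were seen. A gene that the rule also names is not reported here. Members and lists were chosen with earlier results of these data known. Deviations from the group means correlated at 0.193, 0.154 and 0.267 between M2a and M0 arrays of the same series number, which share a slide. Between different numbers they correlated at -0.174 to -0.017. The deviations of a gene cancel within each group, so the negative values follow in part from the positive ones. Arrays of the same number thus varied together, and the slide cannot be told apart from other sources of this pairing. Alternatives covered background correction, normalization, probe filter, probe averaging, blocks, the compared groups alone and leaving out each array.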

Additional observations from a re-analysis of the deposited data

How the results depend on the processing

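The 2209 genes called in M2a against M0 became 1465 (43.8% of them higher) when only these groups were fitted, 1309 to 2151 on leaving out single arrays (1309 without M2a array 1), 958 with series 2 and 3 alone and 1090 with the replicate block on the 6 arrays; the last pair of settings was chosen after seeing the data. The cause was not tested, although these settings have fewer arrays. The replicate block by series number in the whole fit gave 2975 and newly called 5 named genes (Mrc1, Jak1, Shc1, Pias3 and Ch25h, which moved to an adjusted p of 0.0294, against 0.0575) without changing the call of another; quantile normalization gave 2347 (43.6% higher), the authors' deposited values 2350 (43.7% higher), normexp background correction 2076 (59.7% higher) and no filter on dim probes 1846. The 623 genes that stood apart from all other M-CSF groups became 381 to 662 on leaving out single arrays (381 without M2a array 1) and 296 with series 2 and 3 alone. Leaving the filter out and normexp moved the median of all genes to 0.17 and -0.15, from 0.06. Direction reversed for Arg2 (-0.20), Ccl22 (-0.12), Rel (-0.16) and Tnfsf4 (-0.18) with normexp; the cause was not tested. Of 137 named genes 97 were called, and 61 of them kept the call under every alternative tried. Genes near background, which normexp with its offset compresses (Retnla 6.62, against 11.99), have the least certain fold changes.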
